A study of Homo sapiens with 12 samples.

Results

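Genes of the sodium pump were followed through RNA-seq of A549 cells, namely FXYD2, FXYD3 and FXYD5, which code for small regulators of the pump, and ATP1B1 and ATP1B3, which code for its beta subunits. These are 5 of the 25365 rows of the expression table. FXYD2 was selected on its measured level, which was lower in cells lacking PARP3 (poly(ADP)ribose polymerase 3, a DNA repair enzyme), and the other 4 were selected as FXYD relatives or as subunits that FXYD proteins bind. Differences of the 5 genes between genotypes are therefore given as descriptions, with no test, while their responses to drug, which the selection rule did not use, were tested. Of the 5 genes, 4 had a mean of at least 1 FPKM (fragments per kilobase of transcript and per unit of sequencing depth) over the 12 libraries and entered the tests with 11881 genes in all, and FXYD3 did not.

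A549 is a human lung adenocarcinoma cell line. The study compared wild-type (WT) A549 cells with PARP3-/- A549 cells, each treated for 24 h with vehicle (DMSO) or with 1 μM pyridostatin, a small molecule that stabilizes G-quadruplex DNA. There were 3 biological replicates in each of the 4 groups, WT vehicle, PARP3-/- vehicle, WT pyridostatin and PARP3-/- pyridostatin. The PARP3-/- cells were made by transient Cas9 cutting with a pair of guides followed by cloning, and the number of clones behind these libraries is not given in the sources used here, so that genotype and clone cannot be told apart. In the study's account the PARP3-/- A549 cells carried a rearrangement reporter made with AAVS1 sequence, and whether the WT cells sequenced here carried it is not stated there.

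The Na,K-ATPase, or sodium pump, moves sodium out of the cell and potassium in, at the cost of ATP, and holds the ion gradients that epithelia use to move salt and water. Its alpha subunit carries out the transport, its beta subunit is a glycoprotein needed for the pump to fold and reach the plasma membrane, and an FXYD protein can join them as a regulator that adjusts the pump's affinity for ions in a tissue-dependent way. FXYD2, the gamma subunit, is best known in the kidney, FXYD3 (Mat-8) in epithelia of the gut and in tumours, and FXYD5 (dysadherin) in carcinoma cells, where it is associated with weaker cell adhesion.

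The family takes its name from a short signature shared by its members. The coding stretch around it is shown for the 3 FXYD genes because it is the feature that makes them one family and shows how far their coding sequences differ. Capitals mark the 12 bases that code for the signature, and each stretch of 30 bases is read 5′ to 3′ along the coding strand of GENCODE release 29 transcripts.
FXYD2: gtggacccgTTCTACTATGACtatgagacc
FXYD3: aacagtcctTTCTACTATGACtggcacagc
FXYD5: gatgaccccTTCTTCTATGATgaacacacc
In the GRCh38 build these lie at chr11:117822470-117822697 on the minus strand, chr19:35121227-35122775 on the plus strand and chr19:35166153-35166261 on the plus strand, each within coding exons and split by an intron. The stretch was present in 4 of 4 protein-coding transcripts of FXYD2, 9 of 13 of FXYD3 and 8 of 9 of FXYD5. FXYD2 and FXYD3 had the same 12 bases in the signature, while FXYD5 shared 10 of the 12 with either. Over the whole 30 bases FXYD2 matched FXYD3 at 18 and FXYD5 at 21, and FXYD3 matched FXYD5 at 18, so the stretches differ at many positions outside the signature. FXYD2 lies on chromosome 11, FXYD3 and FXYD5 on chromosome 19, ATP1B1 on chromosome 1 and ATP1B3 on chromosome 3.

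The depth behind these values is not given by FPKM, and the steps between low values gave approximate depths of 24100000 to 34100000 reads a library (median 28000000). At those depths FXYD2 rested on about 177 reads or more in every library, for a counting error of at most 7.5%, and FXYD5, ATP1B1 and ATP1B3 on about 1195, 1753 and 513 reads or more. The libraries had the markers of an epithelial line, with 6 of 6 epithelial genes and 4 of 4 oxidoreductases typical of A549 above a mean of 1 FPKM, while 0 of 4 alveolar genes reached it and SFTPB was listed at 0 throughout. The summed level of the 4 oxidoreductases was 5184 to 5705 FPKM in the WT libraries and 3998 to 4366 FPKM in those labelled PARP3-/-. Markers of leukocytes (1 of 3 genes above 1 FPKM, CD3E at 0) summed to 14.0 to 16.1 FPKM in WT and 18.7 to 21.1 FPKM in PARP3-/- libraries. Fibroblast markers (1 of 3) summed to 0.607 to 1.03 FPKM in WT and 1.24 to 1.68 FPKM in PARP3-/- libraries, and endothelial markers (0 of 3) to 0.116 to 0.213 and 0.245 to 0.375 FPKM, so that these sums, too, did not overlap between genotypes. Epithelial sums did overlap, at 5746 to 6829.5 FPKM in WT and 5181 to 5913 FPKM in PARP3-/- libraries. Among single tested genes, 24.2% did not overlap between genotypes with vehicle and 35.2% with pyridostatin. Erythroid markers (0 of 2) reached 4.19 FPKM. The part of these markers and oxidoreductases in the results below was not tested. PARP3 itself had mean levels of 3.73 FPKM in WT vehicle, 4.41 in PARP3-/- vehicle, 3.79 in WT pyridostatin and 4.58 in PARP3-/- pyridostatin libraries, so its transcript was not lower where it was labelled deleted. The guides targeted a short stretch inside the gene and the table adds up the whole gene, so this level does not check the deletion, and the genotypes below are those of the labels.

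FXYD2 was the member that differed most between genotypes, and it did not change detectably with pyridostatin. In WT vehicle libraries its level was 53.5, 66.1 and 51.9 FPKM, and in PARP3-/- vehicle libraries 21.6, 21.3 and 24.6 FPKM. With pyridostatin it was 58.4, 53.4 and 59.4 FPKM in WT and 23.5, 23.6 and 24.3 FPKM in PARP3-/- cells. Every WT library thus lay above every PARP3-/- library, with or without drug. Means were 57.2 ± 7.79 FPKM (SD, n = 3) in WT vehicle and 22.5 ± 1.81 in PARP3-/- vehicle, and 57.0 ± 3.22 and 23.8 ± 0.457 with pyridostatin. The PARP3-/- mean was 39.4% of the WT mean with vehicle and 41.7% with pyridostatin, a 2.54-fold and a 2.40-fold difference. On the log2(FPKM + 1) scale, which understates changes of low genes, the differences were -1.30 and -1.22 (SE 0.0864 each). Over all tested genes the genotype groups did not overlap for 24.2% with vehicle and 35.2% with pyridostatin. As the bulk libraries hold many cells, fewer cells with FXYD2 RNA and less FXYD2 RNA per cell cannot be told apart.

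**Figure D1:**
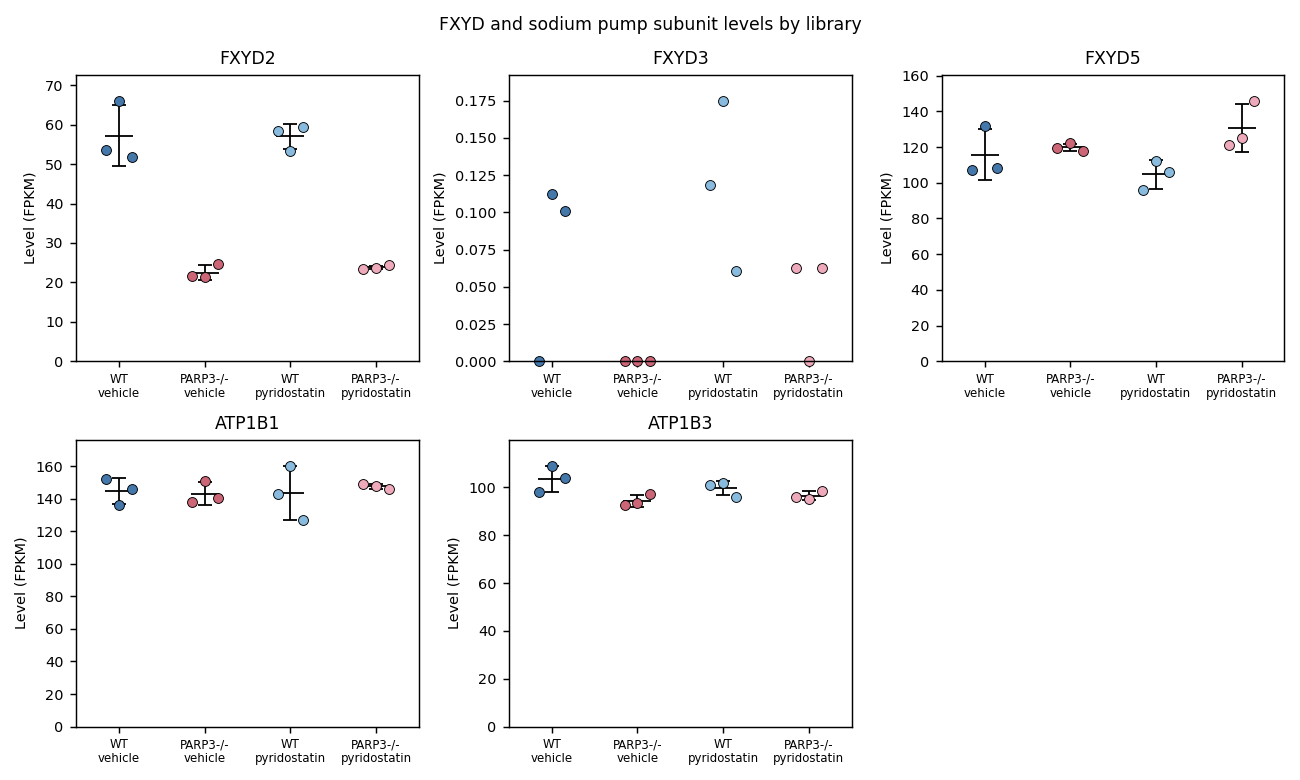
Level in FPKM (vertical axes, linear, from 0) of the 5 members in the 12 libraries by group, with 1 point a library, and a bar for the mean and whiskers for the SD of 3 replicates except for FXYD3, which is at 0 in 5 libraries. FXYD2 is 51.9 to 66.1 FPKM in the WT libraries and 21.3 to 24.6 FPKM in the PARP3-/- libraries, while the groups of ATP1B1 overlap.

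The response of FXYD2 to pyridostatin was close to 0 in both genotypes. In WT cells the drug moved it by 0.00 on the log2(FPKM + 1) scale (95% confidence interval -0.187 to 0.195, limma adjusted p = 0.99), and in PARP3-/- cells by 0.08 (-0.112 to 0.27, limma adjusted p = 0.684). The interaction, the difference between those responses, was 0.08 (SE 0.122, interval -0.195 to 0.346, limma adjusted p = 0.999). Among all tested genes limma called 2.79% higher and 1.38% lower with pyridostatin in WT cells, 3.05% higher and 2.52% lower in PARP3-/- cells, and 0% for the interaction, where 521 genes had an unadjusted p under 0.05. None of the 4 tested members was among the genes called in these 3 comparisons, and changes of FXYD2 within the intervals above could not be detected with these libraries.

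FXYD5 was the most abundant FXYD gene and had about the same level in the vehicle groups. Its values were 107, 132 and 108 FPKM in WT vehicle and 119.5, 122 and 118 FPKM in PARP3-/- vehicle libraries. With pyridostatin they were 96.2, 112 and 106 FPKM in WT and 121, 125 and 146 FPKM in PARP3-/- libraries. The vehicle groups overlapped, whereas with pyridostatin each PARP3-/- library was above each WT library. In that comparison the groups did not overlap for 35.2% of all tested genes. The genotype difference was 0.06 with vehicle and 0.31 with pyridostatin (SE 0.0924 each, log2(FPKM + 1) scale), from means of 116 ± 14.1 against 120.1 ± 2.1 FPKM and of 105 ± 8.11 against 130.4 ± 13.6 FPKM. FXYD5 moved by -0.14 with pyridostatin in WT cells (interval -0.345 to 0.064, limma adjusted p = 0.43) and by 0.11 in PARP3-/- cells (-0.091 to 0.318, limma adjusted p = 0.567), neither of which passed the test. The 2 responses had opposite signs, but their difference of 0.25 (SE 0.131, interval -0.035 to 0.543) had a limma p of 0.0791 before and 0.999 after adjustment.

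FXYD3 was at the limit of detection. It was listed at 0 in 5 of the 12 libraries, including all 3 of PARP3-/- vehicle, and its highest value was 0.175 FPKM, in a WT pyridostatin library. The other WT values were 0, 0.112 and 0.101 FPKM with vehicle and 0.118 and 0.0605 FPKM with drug, and the PARP3-/- pyridostatin values were 0.0628, 0 and 0.0625 FPKM. After correction for depth the highest value was 3.5 times the smallest value above 0, so that these levels stand for a few reads, and no difference between groups was detectable at this depth.

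The beta subunits were abundant in all groups. ATP1B1, which codes for the beta 1 subunit found in most tissues, was at 152, 136 and 146 FPKM in WT vehicle, 138, 151 and 140.2 in PARP3-/- vehicle, 143, 160.2 and 127 in WT pyridostatin and 149, 148 and 146 in PARP3-/- pyridostatin libraries. The 4 groups overlapped, with means of 145 ± 8.07, 143 ± 7.08, 144 ± 16.6 and 148 ± 1.49 FPKM. Genotype differences were -0.02 and 0.05 with vehicle and with pyridostatin (log2(FPKM + 1) scale, SE 0.0749). The response to pyridostatin was -0.02 in WT (interval -0.184 to 0.147, limma adjusted p = 0.922) and 0.05 in PARP3-/- cells (-0.117 to 0.214, limma adjusted p = 0.784), and the interaction was 0.07 (-0.167 to 0.301, limma adjusted p = 0.999).

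ATP1B3, which codes for the beta 3 subunit, was at 98.1, 109 and 104 FPKM in WT vehicle and 92.5, 93.3 and 97.3 FPKM in PARP3-/- vehicle libraries. Pyridostatin libraries had 101, 102 and 96.2 FPKM in WT and 96.0, 95.1 and 98.5 FPKM in PARP3-/- cells. The vehicle groups did not overlap, the lowest WT value being just above the highest PARP3-/- value, and the pyridostatin groups overlapped. With vehicle the genotype groups did not overlap for 24.2% of all tested genes. The genotype differences were -0.14 and -0.04 (SE 0.0432, log2(FPKM + 1) scale), small beside those of FXYD2. Pyridostatin moved ATP1B3 by -0.06 in WT (interval -0.156 to 0.035, limma adjusted p = 0.475) and by 0.03 in PARP3-/- cells (-0.063 to 0.128, limma adjusted p = 0.744), with an interaction of 0.09 (-0.042 to 0.228, limma adjusted p = 0.999).

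**Figure D2:**
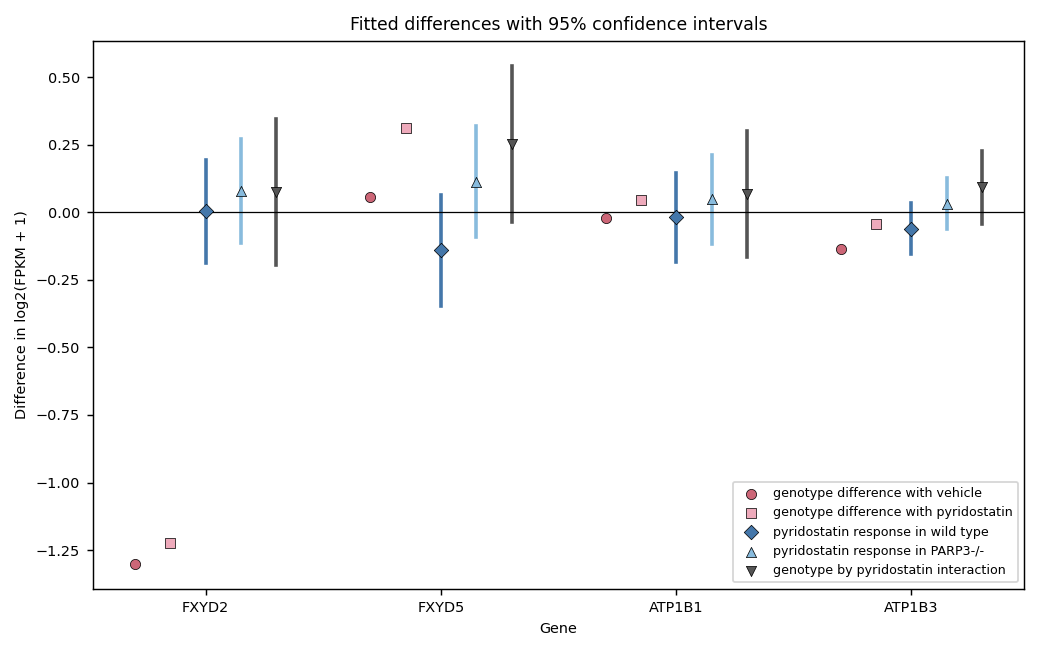
Fitted differences in log2(FPKM + 1) (vertical axis) for the 4 tested members in the 5 comparisons, with 95% confidence intervals as lines, which are left out for genotype differences since the members were selected with these known. FXYD2 lies at -1.30 and -1.22 for genotype and near 0 for the response to pyridostatin, where every interval drawn includes 0.

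FPKM is scaled per length of transcript, which allows a rough comparison of levels between genes. In WT vehicle replicate 2 values still shifted with transcript length, as given below. ATP1B1 was above FXYD5 in 12 of 12 libraries, FXYD5 above ATP1B3 in 11 of 12 and ATP1B3 above FXYD2 in 12 of 12. FXYD2 was thus below the other expressed members even in WT cells, yet its mean over all libraries was above that of 82.4% of tested genes. The mean of FXYD5 was above 94.5%, that of ATP1B1 above 95.6% and that of ATP1B3 above 93.2% of tested genes.

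The make-up of the FXYD pool differed between genotypes, with a lower level of FXYD2 in PARP3-/- cells under both treatments. FXYD5 was also higher in PARP3-/- libraries with pyridostatin, a comparison in which 35.2% of all tested genes did not overlap between genotypes. FXYD2 and FXYD5 together were 99.7% to 99.9% of the summed FPKM of the 7 FXYD genes in every library. FXYD2 was 32.9% ± 0.558 (SD, n = 3) of that sum in WT vehicle, 15.8% ± 1.25 in PARP3-/- vehicle, 35.2% ± 2.83 in WT pyridostatin and 15.5% ± 1.06 in PARP3-/- pyridostatin libraries, and the WT libraries did not overlap with the PARP3-/- libraries. Divided by the summed FPKM of ATP1B1 and ATP1B3, FXYD2 was at 0.230 ± 0.0344, 0.095 ± 0.00819, 0.236 ± 0.0311 and 0.0975 ± 0.0018 in the same order of groups, and FXYD5 at 0.466 ± 0.0626, 0.506 ± 0.0116, 0.432 ± 0.0402 and 0.534 ± 0.0552. All FXYD genes together stood at 0.698 ± 0.0966, 0.602 ± 0.0131, 0.671 ± 0.0617 and 0.632 ± 0.0569 of the beta subunits, and the genotypes overlapped with pyridostatin but not with vehicle. ATP1B1 was 1.25 to 1.62 times ATP1B3 in the 12 libraries. These shares and ratios use the values on which FXYD2 was selected and are given without a test.

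**Figure D3:**
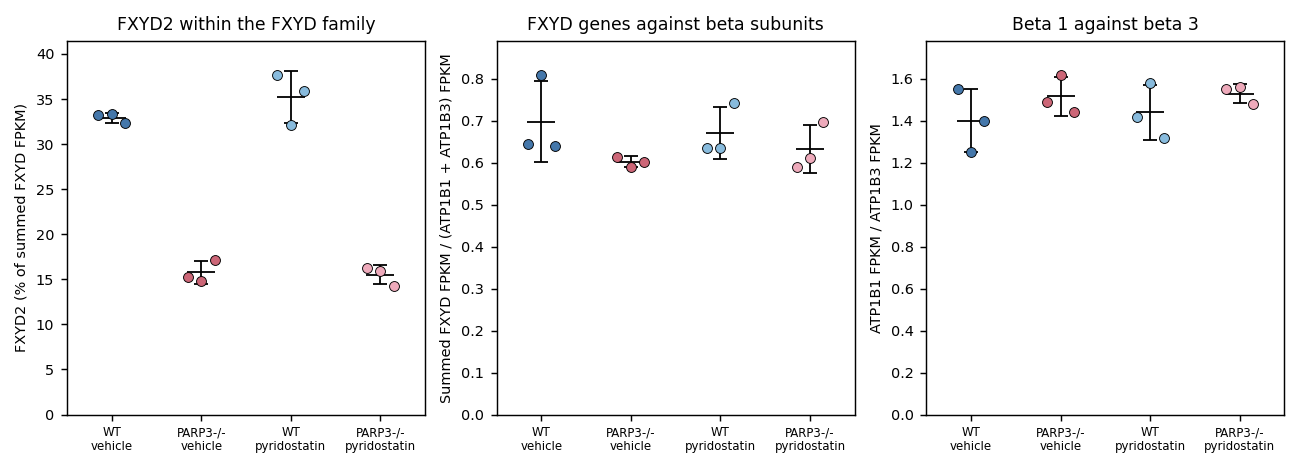
FXYD2 as a percentage of the summed FPKM of the FXYD genes (left), that sum divided by the summed FPKM of ATP1B1 and ATP1B3 (middle) and the FPKM of ATP1B1 divided by that of ATP1B3 (right), with 1 point a library and the mean and SD of 3 replicates per group, on linear axes from 0. FXYD2 is 32.1% to 37.7% of the pool in WT and 14.3% to 17.2% in PARP3-/- libraries, and ATP1B1 stays between 1.25 and 1.62 times ATP1B3.

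The other FXYD and beta subunit genes were near 0. Of the 11 genes, members included, 4 were tested, all of them members. FXYD1 and FXYD4 had no more than about 2 reads in a library and FXYD7 no more than about 4, if their smallest value stands for 1 read. After correction for depth their values were whole multiples of the smallest one, within 0.02, in 12 of 12 libraries. FXYD6, a regulator known from the brain, was at 0.0289 to 0.207 FPKM. ATP1B2 and ATP1B4 did not exceed 0.0397 and 0.0157 FPKM.

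On the chromosome, FXYD2 has FXYD6 as its neighbour, and a readthrough transcript joins them. The row of that readthrough, FXYD6-FXYD2, reached at most 0.168 FPKM. Readthrough and FXYD2 share sequence, so how reads were divided between them was set by the authors' software. The readthrough value is scaled to the readthrough's own length, and FXYD2 itself was at 21.3 FPKM or more in every library. How far the readthrough's reads would change the FXYD2 level was not computed. The neighbours of FXYD3, HPN-AS1 and MIR6887, were listed at 0 in all libraries, as was FAM187B beside FXYD5, and FXYD7 on its other side did not exceed 0.309 FPKM.

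One library stood apart and touches FXYD2, FXYD5 and ATP1B3, whose longest coding transcripts have 672, 1580 and 1811 bases. In WT vehicle replicate 2, the 364 tested protein-coding genes with a longest coding transcript under 1000 bases were a median of 0.20 above their group mean on the log2(FPKM + 1) scale, and the 4257 genes with 4000 bases or more were 0.12 below it (-0.12). In the other 11 libraries these medians ran from -0.11 to 0.05 and from -0.03 to 0.06. Genes with 1000 to 2000 bases, the class of FXYD5 and ATP1B3, were a median of 0.13 above the group mean in WT vehicle replicate 2. In the other 11 libraries the median of that class ran from -0.07 to 0.03. FXYD2 was 0.21, FXYD5 0.19 and ATP1B3 0.07 above the group mean in WT vehicle replicate 2, each the highest value of the group. Without that library, FXYD2 had a WT vehicle mean of 52.7 FPKM, still 2.34 times that of PARP3-/- vehicle. Centring every library within classes of transcript length, a setting chosen after seeing the data, gave -1.292 and -1.265 for the genotype difference of FXYD2.

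**Figure D4:**
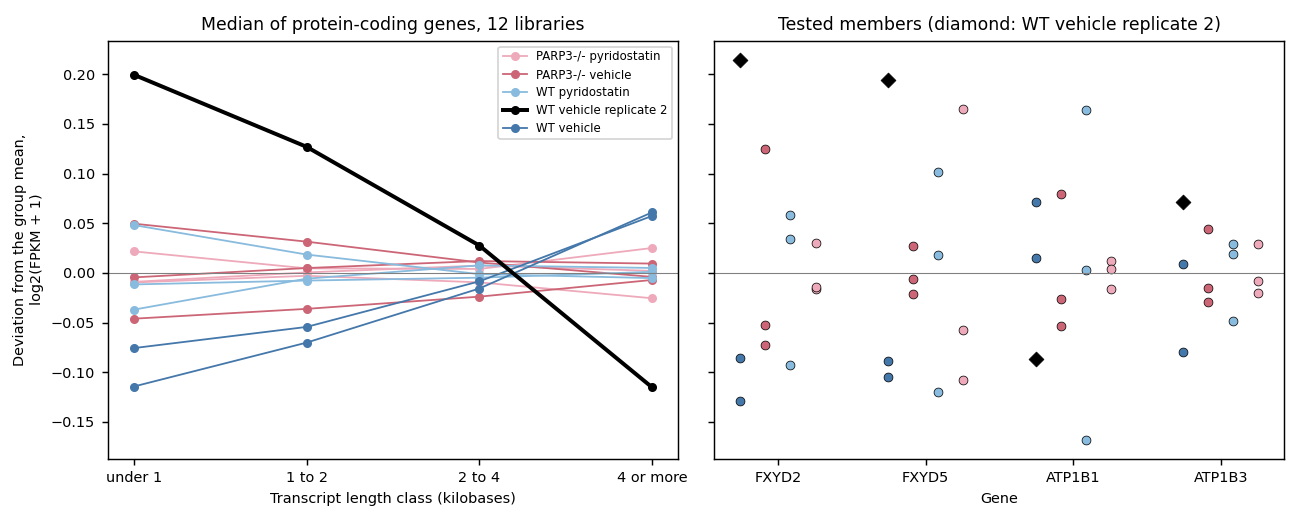
Deviation from the group mean in log2(FPKM + 1) (vertical axis), as the median of tested protein-coding genes in 4 classes of transcript length (left, 1 line a library) and for the 4 tested members (right, 1 point a library). WT vehicle replicate 2, in black, falls from 0.20 in the shortest to -0.12 in the longest class. It holds the highest point of FXYD2, of FXYD5 and of ATP1B3 in its group.

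The genes whose levels over the 12 libraries were most like that of FXYD2 were CES1, a carboxylesterase (Pearson r = 0.988), SPINK6, a protease inhibitor (0.987), SUSD2, a membrane protein (0.987), SULT2B1, a sulfotransferase (0.986), and STAT4, a transcription factor (0.985). All 5 separated the genotypes as FXYD2 did, which was built in, since they were picked for likeness to a gene selected on that split. CES1 and SPINK6 did not exceed 0.324 and 0.237 FPKM in PARP3-/- libraries and passed the filter on the mean through the WT libraries. SPINK6, for example, was at 4.29 to 7.09 FPKM in WT and 0.0786 to 0.237 FPKM in PARP3-/- libraries, and SUSD2 at 17.2 to 18.7 and 5.4 to 6.9 FPKM. In all, 162 of 11877 genes compared had r above 0.9, and 328 had a negative r of more than that size. The 5 names depend on the measure, as 3 of them were among the first 5 with a pseudocount of 0.1 and 0 with Spearman's rho. These libraries share the split between genotypes. Within the 6 WT libraries r of the 5 genes with FXYD2 was 0.2 to 0.806 and within the 6 PARP3-/- libraries -0.443 to 0.408.

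Beyond the pump itself, 3 lists of related genes were read in the same fits. The lists were chosen with earlier results of these data known, so the p-values of their genes are not independent support. The first, of 16 genes, holds related pumps and the kinases and ligases that regulate sodium transport, and 10 of them were tested. Over all tested genes limma called 6.4% higher and 3.01% lower in PARP3-/- cells with vehicle, and 7.07% higher and 3.85% lower with pyridostatin. For the response to the drug it called 2.79% higher and 1.38% lower in WT, and 3.05% higher and 2.52% lower in PARP3-/- cells. SGK1, a kinase that raises sodium transport in epithelia, was called in each genotype and each pyridostatin comparison. Its level was 6.43, 6.86 and 6.67 FPKM in WT vehicle, 11.5, 11.4 and 9.22 in PARP3-/- vehicle, 9.49, 9.0 and 8.77 in WT pyridostatin and 14.3, 14.0 and 14.3 in PARP3-/- pyridostatin libraries, and no pair of groups set against each other overlapped. SGK1 was higher in PARP3-/- cells by 0.61 with vehicle (limma adjusted p = 2.43e-04) and 0.59 with pyridostatin (3.13e-04), and rose with pyridostatin by 0.40 in WT (0.0108) and by 0.38 in PARP3-/- cells (0.0121), all limma adjusted p. The response of SGK1 lost its call without WT pyridostatin replicate 1 in WT (limma adjusted p = 0.0638) and without PARP3-/- pyridostatin replicate 3 in PARP3-/- cells (0.0558). Over all tested genes the vehicle and pyridostatin groups did not overlap for 23.1% in WT and 32.3% in PARP3-/- cells. NEDD4L, a ubiquitin ligase that SGK1 inhibits and that removes sodium channels from the membrane, rose with pyridostatin from 4.6 ± 0.394 to 5.72 ± 0.0858 FPKM in WT (log2 difference 0.27, limma adjusted p = 0.0334) and from 4.09 ± 0.226 to 5.08 ± 0.288 FPKM in PARP3-/- cells (0.26, 0.0343). That call was lost under 11 of 21 alternative settings in either genotype. The other 8 tested genes of the list were not called in any comparison, and its median log2 differences were -0.02 and 0.03 between genotypes with vehicle and with pyridostatin and 0.07 and 0.11 for the drug in WT and in PARP3-/- cells, against 0.02, 0.01, 0.00 and 0.00 for all tested genes.

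The second list, of 23 genes, holds the routes by which sodium, potassium, chloride and water cross the membrane beside the pump, of which 15 were tested. In the genotype comparisons 3 were called higher and 2 lower in PARP3-/- cells, both with vehicle and with pyridostatin, beside the shares of all tested genes given above. AQP3, a channel for water and glycerol, was lower in PARP3-/- cells, with 7.05, 6.80 and 6.37 FPKM in WT vehicle and 1.89, 2.19 and 1.84 in PARP3-/- vehicle libraries, then 6.41, 7.23 and 6.89 against 2.19, 2.22 and 2.37 with pyridostatin. The log2 differences of AQP3 were -1.38 (limma adjusted p = 2.13e-07) and -1.27 (4.92e-07), on a scale that understates changes at such levels. SLC8A1, a sodium and calcium exchanger, was higher in PARP3-/- cells, at 1.82 ± 0.131 against 0.864 ± 0.236 FPKM with vehicle (log2 difference 0.60, limma adjusted p = 0.00167) and 1.60 ± 0.0685 against 0.837 ± 0.0922 FPKM with pyridostatin (0.50, 0.00497). With a pseudocount of 0.1 the differences of SLC8A1 were 1.024 and 0.862. Both WT means of SLC8A1 were under 1 FPKM, so this gene passed the filter on the mean through the PARP3-/- libraries. Its 2 genotype calls were kept with no filter on the mean. KCNK5, a potassium leak channel, was lower, at 1.81 ± 0.143 against 2.40 ± 0.0797 FPKM with vehicle (-0.27, limma adjusted p = 0.0141) and 1.71 ± 0.0915 against 2.36 ± 0.162 FPKM with pyridostatin (-0.31, 0.00642). The other 2 genes called higher in PARP3-/- cells were potassium and chloride cotransporters, SLC12A4 by 0.20 and 0.16 (limma adjusted p = 0.0147 and 0.0397) and SLC12A7 by 0.18 and 0.17 (0.029 and 0.0358), the latter named after its values were seen. Both pairs of calls were lost under 8 of 22 alternative settings with vehicle, and under 12 and 11 of 22 with pyridostatin. With pyridostatin 1 gene of this list rose in both genotypes, SLC12A4, by 0.30 in WT (limma adjusted p = 0.00328) and 0.26 in PARP3-/- cells (0.0062). The shares of all tested genes called for the drug are given above. Centring by transcript length ended both calls of SLC12A4 (limma adjusted p = 0.0879 and 0.111), and in WT cells a fit of only the libraries compared did as well (0.0984). The medians of the 15 genes were 0.07, 0.06, 0.02 and 0.00 in the same order.

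**Figure D5:**
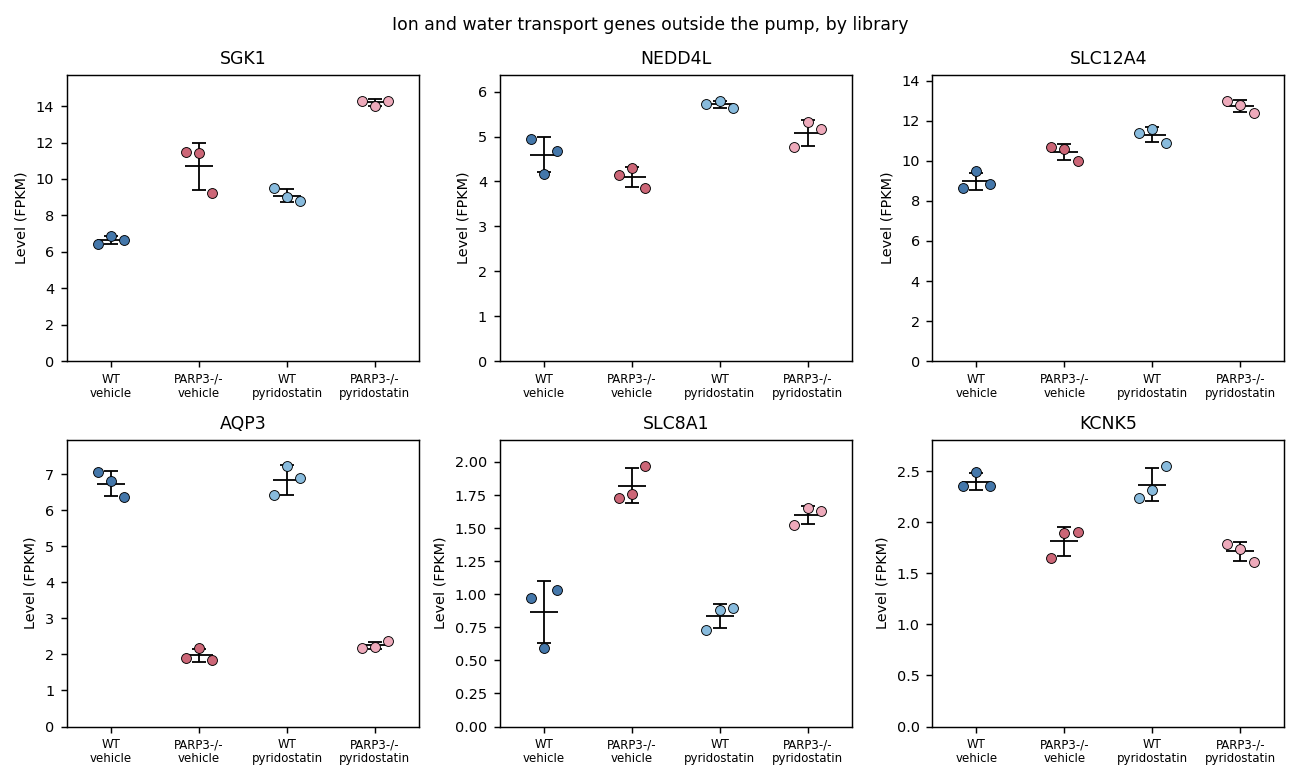
Level in FPKM (vertical axes, linear, from 0) of 6 genes of ion and water transport in the 12 libraries by group, with 1 point a library and the mean and SD of 3 replicates. AQP3 is 6.37 to 7.23 FPKM in WT and 1.84 to 2.37 FPKM in PARP3-/- libraries, and SGK1 is higher in PARP3-/- than in WT libraries under each treatment.

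The third list, of 12 genes, holds transporters and other genes of magnesium handling, with which FXYD2 is linked in the kidney. Of its 10 tested genes limma called 0 in each of the 5 comparisons, beside the shares of all tested genes given above, with 1 to 3 of them at an unadjusted p under 0.05. The medians of the third list were 0.01, 0.06, 0.08 and 0.04.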

How the data were processed

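RNA-seq (stranded mRNA libraries, single-end reads of 75 bases) of 12 libraries was used, in 4 groups of 3 given by the labels. The values deposited by the authors are FPKM from Cufflinks, with 1 column a library and no pooling. The submitters' processing notes also name bcl2fastq 2.16 and STAR 2.5 and the builds hg19 and mm9, with no role for either. The annotation is not given in the sources used here.

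FPKM values were used as deposited, as log2(FPKM + 1). A single linear model of the 4 groups was fitted with limma (version 3.58.1, R 4.3.3) to the 11881 of 25365 rows with a mean of at least 1 FPKM (eBayes with a trend, no block), with Benjamini-Hochberg adjustment over all of them and calls at an adjusted p under 0.05. The study tested counts, which were not used here. The fit was tested on simulated data. Comparisons between genotypes and between treatments share libraries. The study calls the replicates biological without saying whether they were separate cultures, so p-values measure only the spread between these libraries.

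Named genes were the members, the other FXYD and beta subunit genes, up to 3 called genes for each list and comparison with the largest log2 difference, the 5 genes most correlated with FXYD2, PARP3 and chromosomal neighbours. Members and lists were chosen with earlier results of these data known. Some genes of the lists are not reported here. Sequences and transcript lengths came from GENCODE 29 (GRCh38), the lengths matching 93.7% of tested genes, and neighbours from a RefSeq table of GRCh38.p14. Depth was estimated from 116 genes whose values were whole multiples of 1 read, assuming fragments of 200.0 bases, and covers counting error only.

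Alternatives were a pseudocount of 0.1, no filter, a stricter filter (5 FPKM), quantile scaling, a common median, the same FPKM sum, only the libraries compared, no trend, a replicate block, leaving out each library and centring by transcript length.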

Additional observations from a re-analysis of the deposited data

How the results depend on the processing

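The genotype difference of FXYD2 kept its sign under all alternatives run, at -1.36 to -1.19 with vehicle and -1.27 to -1.19 with pyridostatin. No member passed the test for pyridostatin or for the interaction under any alternative. The WT response of FXYD2 was -0.029 with a common median, that of ATP1B1 was 0.03 with quantile normalization and 0.021 with the same FPKM sum, and that of ATP1B3 was 0.001 when centred by length. Leaving out 1 library gave -0.061 to 0.111 for the WT response of FXYD2, -0.101 to 0.066 for that of ATP1B1, -0.032 to 0.14 for the interaction of FXYD2 (negative without WT vehicle replicate 2) and -0.017 to 0.149 for that of ATP1B1.

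The genotype differences of the other tested members are given as ranges over the alternatives, with no test. FXYD5 ran from 0.005 to 0.155 with vehicle and from 0.229 to 0.365 with pyridostatin. ATP1B3 ran from -0.176 to -0.093 and from -0.07 to -0.006, and ATP1B1 from -0.063 to 0.024 and from -0.036 to 0.13. Over all tested genes, those called numbered 1118, 1297, 495, 661 and 0. With only the libraries compared they were 532 with vehicle and 65 for WT pyridostatin, and the interaction gave 1 with a pseudocount of 0.1 and with no filter. Without 1 library, the counts were 746 to 1644 and 806 to 2298 between genotypes, 178 to 706 and 254 to 1559 for pyridostatin and 0 to 1 for the interaction. The counts of 2298 and 1559 were those without WT vehicle replicate 2. The causes were not tested. Replicate numbers did not pair the libraries, whose same-numbered deviations correlated at -0.12 to 0.216. With a replicate block the counts were 1052, 1214, 411, 589 and 0, and FXYD2 differed by -1.30 and -1.22.

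SGK1, AQP3 and SLC8A1 kept their genotype calls in all alternatives run (a mean of at least 5 FPKM left out AQP3, SLC8A1, KCNK5 and NEDD4L), and KCNK5 lost the vehicle call with only the libraries compared (adjusted p = 0.0591). The genotype calls of SLC12A4 and SLC12A7 were lost without several single libraries (adjusted p up to 0.0628 and 0.104 with vehicle, among them PARP3-/- vehicle replicates 1 and 2, and 0.152 and 0.132 with pyridostatin, among them WT pyridostatin replicates 1 and 3). The NEDD4L response in WT lost its call without WT vehicle replicate 3, PARP3-/- vehicle replicates 1 or 2, any WT pyridostatin replicate or PARP3-/- pyridostatin replicate 3 (adjusted p up to 0.123), and in PARP3-/- cells without any of 8 libraries, all but WT vehicle replicates 1 and 2, WT pyridostatin replicate 2 and PARP3-/- pyridostatin replicate 1 (up to 0.129). Adjusted p are those of limma.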
